A study of Mus musculus with 9 samples.

Results

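Potassium channel genes were followed in brown fat, white fat and soleus muscle. They were taken as the genes of the deposited matrix whose symbol starts with Kcn, the root for potassium channel subunits. Of 17753 genes, 95 met this. Among them, 2 encode no subunit, the non-coding transcript Kcnq1ot1 and the channel regulator Kcnrg. Both stayed below 1 FPKM in every library. Of the 95, 28 stood at 1 FPKM or more in at least 3 of the 9 libraries and are described in depth. FPKM are sequenced fragments scaled to transcript length and to the mapped total of a library. All tissues were of male C57BL/6J wild-type mice, 3 months old, with no transgene or treatment stated, and each tissue had 3 libraries. The labels count 3 mice and do not say which libraries share one, so the p-values measure the spread between these libraries, which may be partly technical. Brown fat burns lipid to make heat, white fat keeps lipid in store, and soleus is a muscle of the calf. Which depot the white fat came from is not given in the sources used.

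Potassium channels let potassium leave or enter the cell down its gradient and so set the resting membrane voltage and end electrical signals. The pore subunits fall into two-pore-domain (Kcnk), inward rectifier (Kcnj), voltage-gated (Kcna to Kcnd, Kcnf to Kcnh, Kcnq, Kcns and Kcnv) and calcium- or sodium-activated (Kcnma1, Kcnn, Kcnt and Kcnu) classes, and auxiliary subunits (Kcnab, Kcne, Kcnip and Kcnmb) attach to them. In muscle, channels of the sarcolemma hold the resting voltage and repolarise the fibre after an action potential. In brown adipocytes, potassium channels have been studied as a counterweight to the depolarisation that follows adrenergic stimulation.

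The libraries followed their tissue labels. The brown adipocyte markers Ucp1, Cidea, Cox8b, Elovl3 and Dio2 were called higher in brown fat when set against white fat (5 of 5), the 5 white fat markers Lep, Retn, Nnat, Sncg and Agt were called lower (5 of 5), and the 7 matched of 11 muscle fibre markers summed to 35356 to 42931 FPKM in soleus against 56.0 to 222 in brown and 16.6 to 18.0 in white fat. In soleus the brown adipocyte list summed to 4258 to 5633 FPKM, of which 4243 to 5623 came from Cox8b, a subunit also of muscle mitochondria, and Ucp1 stood at 0.617 to 4.14 FPKM there. None of these 3 lists had a gene at 0 in all libraries of a tissue. The relative depth of the libraries, read from the spacing of low values, ran from 1 (white fat replicate 2) to 3.58 (white fat replicate 3). Absolute read totals were not used here.

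Summed over all 95 genes, Kcn transcripts stood at 138, 145 and 136 FPKM in brown fat replicates 1, 2 and 3, at 48.8, 51.2 and 51.0 FPKM in white fat and at 147, 153 and 174 FPKM in soleus. As deposited, the mean of brown fat was 2.77 times and that of soleus 3.14 times that of white fat. The FPKM of all genes also summed to less in white fat, and with every library rescaled to a common total these ratios were 1.84 and 2.13, and the sums were 121 to 125 in brown fat, 61.7 to 71.0 in white fat and 128 to 158 in soleus. The totals of brown fat and soleus were made of different classes. In brown fat, two-pore-domain genes held 70.3% ± 1.73 of the total (SD, n = 3), against 15.7% ± 1.45 in white fat and 1.27% ± 0.215 in soleus. In soleus, voltage-gated genes held 45.1% ± 3.67 and inward rectifiers 37.8% ± 3.47. White fat was led by the voltage-gated genes at 40.2% ± 2.19, followed by inward rectifiers at 18.8% ± 2.17 and auxiliary subunits at 16.9% ± 2.51. Calcium- or sodium-activated genes held 2.02% ± 0.0964 in brown fat, more in white fat at 8.13% ± 1.06, and 11.3% ± 0.445 in soleus. In bulk tissue, a lower level can come from fewer cells of a type or from less RNA per cell, and these cannot be told apart.

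**Figure D1:**
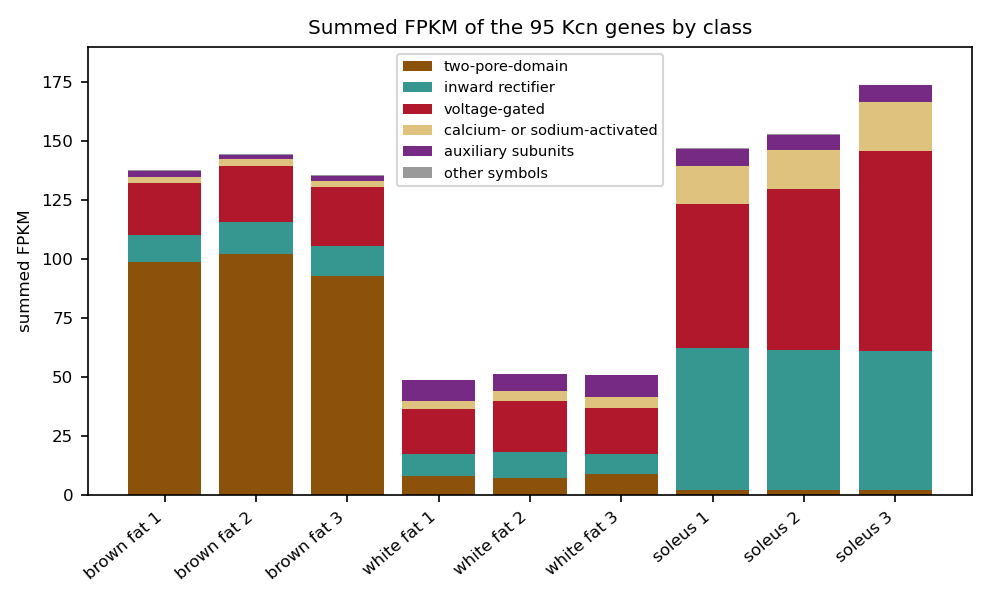
Summed FPKM of the 95 Kcn genes in each of the 9 libraries (vertical axis, linear from 0), stacked by class of subunit. Kcnq1ot1 and Kcnrg, which encode no subunit, are stacked as other symbols. The brown fat bars consist mostly of two-pore-domain genes, the soleus bars of voltage-gated and inward rectifier genes, and the white fat bars stay near 50 FPKM (48.8 to 51.2).

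By their highest mean, 15 of the 28 genes led in soleus, 8 in white fat and 5 in brown fat. Called higher against both other tissues were 14 genes in soleus (50.0%), 8 in white fat (28.6%) and 4 in brown fat (14.3%), where 18.2%, 27.8% and 25.4% of all 9913 genes tested were. The soleus genes included Kcna7, Kcnc1, Kcnc4, Kcng4, Kcnq5, Kcnj2, Kcnj11, Kcnj12, Kcnma1, Kcnn1, Kcnn2, Kcne1l and Kcne4. Those of white fat were Kcnj15, Kcnk2, Kcnk6, Kcnn4, Kcns3, Kcnab1, Kcnab2 and Kcnip3, and those of brown fat included Kcnk3, Kcnk4 and Kcnab3. Kcna5 and Kcnj8 belonged to none of these groups. A gene could enter the 28 through 1 tissue alone, in which case it had to differ, so these counts describe the genes and were not tested against other genes.

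Of the 28 genes, 21 were called between brown and white fat (75.0%, against 72.8% of all genes tested), with 9 higher in brown fat and 12 lower, where 38.0% and 34.8% of all genes were. Between brown fat and soleus 21 were called too (75.0%, against 78.5%), 5 higher in brown fat (17.9%, against 52.9%) and 16 lower (57.1%, against 25.6%). Between white fat and soleus 24 were called (85.7%, against 84.2%), 9 higher in white fat (32.1%, against 54.5%) and 15 lower (53.6%, against 29.7%). The shares called in either direction were thus near those of all genes. Values did not overlap between brown and white fat in 25 genes (89.3%, against 77.4% of all genes), between brown fat and soleus in 22 (78.6%, against 81.1%) and between white fat and soleus in 25 (89.3%, against 85.6%). Called and at least 1 log2 unit apart were 9 genes (26.4% of all genes), 17 (32.9%) and 19 (41.2%) in these comparisons. The median log2 difference of the 28 genes was -0.00, -0.45 and -0.76 in the 3 comparisons, where that of all genes was 0.03, 0.29 and 0.35. The comparisons share libraries, so they are not independent of each other. The balance over all genes moved with scaling. Rescaling each library to a common total brought the median of all genes to -0.43 in brown against white fat and to 0.78 in white fat against soleus, and lowered the part of the calls that favoured brown over white fat from 52.2% to 22.4%. In white fat against soleus it raised that part from 64.7% to 78.7%. Median of ratios scaling lowered it from 67.4% to 47.5% in brown fat against soleus and from 64.7% to 50.1% in white fat against soleus. Upper quartile scaling gave 52.3% and quantile normalization 54.6% in brown fat against soleus, and quantile normalization gave 52.3% in white fat against soleus. Over 21 alternatives, between 7 and 12 Kcn genes were higher and between 10 and 13 lower in brown against white fat.

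**Figure D2:**
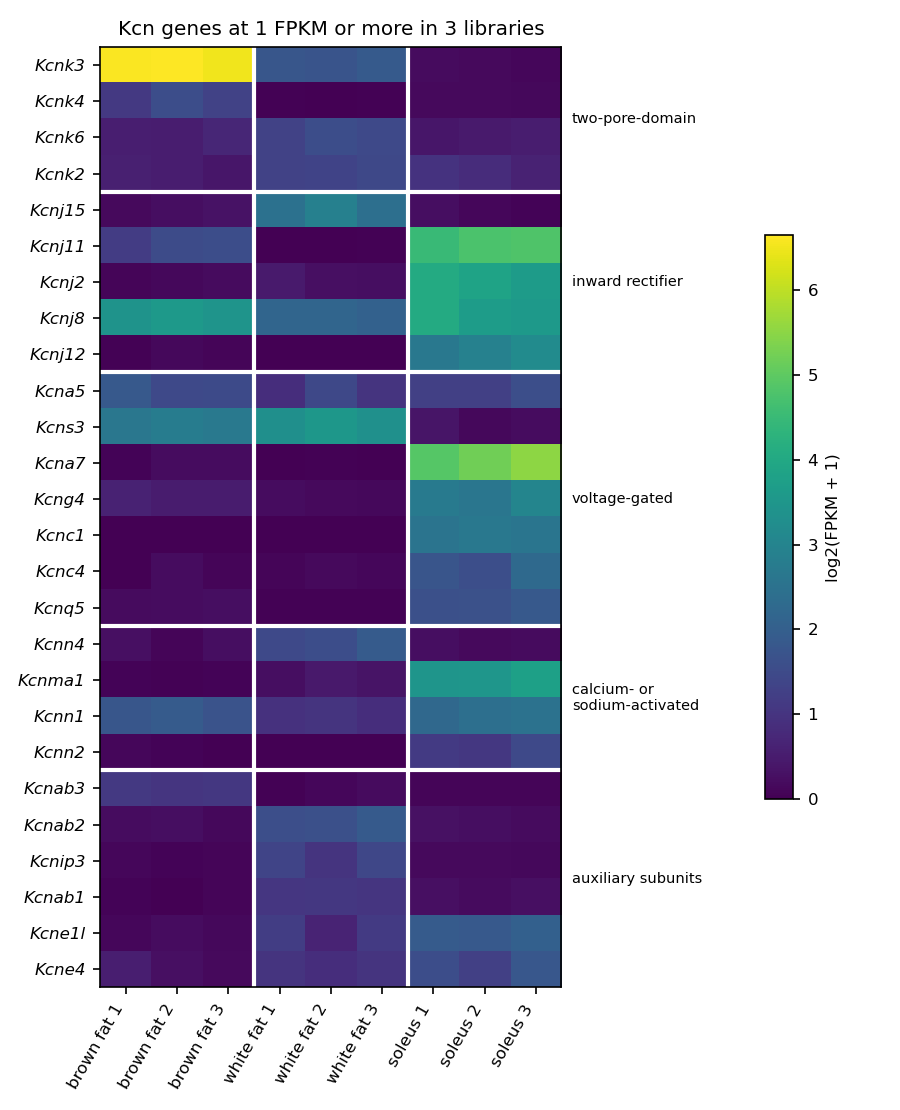
Level of 26 of the 28 genes as log2(FPKM + 1) (colour) in each of the 9 libraries (columns), with genes in rows grouped by class. Kcnk3 in brown fat is the brightest row segment, and a block of inward rectifier, voltage-gated and calcium-activated genes is brighter in soleus than in both fats.

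Sequence upstream of the annotated start was looked at because the soleus genes were high together in 1 tissue. RefSeq windows on build GRCm38.p6, which is not the mm9 build of the deposited values, were matched for 21 of the 28 genes, and among those not matched were Kcnab3, Kcnj11, Kcnk3, Kcnk6 and Kcnn2. The 250 bases before the start were searched on both strands for 5 motifs, none of which overlapped in the windows printed. Of these, CAGCTG and CACCTG are E-box forms of the kind that myogenic factors bind, and AGGTCA is a nuclear receptor half-site. The others were TATAAA and CTA and TAG with any 4 bases between them. MEF2 sites have A or T at those 4 bases, so the last pattern is looser than their core. Printed here are windows of Kcna7, the highest soleus gene, of Kcnj2 and Kcng4, soleus genes with a CAGCTG, of Kcnj15, the white fat gene with the largest difference from brown fat, and of Kcnk4, the 1 brown fat gene with a window. Capitals mark the motifs. The windows lie at chr7:45405710-45405959 (plus strand) for Kcna7, chr11:111065914-111066163 (plus strand) for Kcnj2, chr8:119635681-119635930 (minus strand) for Kcng4, chr16:95257308-95257557 (plus strand) for Kcnj15 and chr19:6934516-6934765 (minus strand) for Kcnk4, and each is written 5′ to 3′ toward its gene.
Kcna7: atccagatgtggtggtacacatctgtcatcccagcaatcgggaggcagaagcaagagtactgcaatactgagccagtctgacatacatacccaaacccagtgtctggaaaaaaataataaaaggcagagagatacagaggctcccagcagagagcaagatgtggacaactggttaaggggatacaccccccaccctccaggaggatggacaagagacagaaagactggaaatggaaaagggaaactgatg
Kcnj2: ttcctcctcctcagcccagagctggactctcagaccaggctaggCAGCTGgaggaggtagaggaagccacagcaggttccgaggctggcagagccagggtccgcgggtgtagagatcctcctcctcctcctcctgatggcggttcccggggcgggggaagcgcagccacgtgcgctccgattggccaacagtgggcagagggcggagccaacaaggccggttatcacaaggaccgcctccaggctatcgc
Kcng4: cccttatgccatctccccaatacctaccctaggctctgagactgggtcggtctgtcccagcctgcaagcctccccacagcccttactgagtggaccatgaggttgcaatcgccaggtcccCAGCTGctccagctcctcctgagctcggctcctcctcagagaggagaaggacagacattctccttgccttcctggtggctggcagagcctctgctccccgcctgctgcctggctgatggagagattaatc
Kcnj15: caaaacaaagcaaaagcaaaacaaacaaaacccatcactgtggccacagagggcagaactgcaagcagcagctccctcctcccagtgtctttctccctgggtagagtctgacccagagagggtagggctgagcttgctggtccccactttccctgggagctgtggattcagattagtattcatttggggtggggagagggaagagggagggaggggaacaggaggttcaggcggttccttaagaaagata
Kcnk4: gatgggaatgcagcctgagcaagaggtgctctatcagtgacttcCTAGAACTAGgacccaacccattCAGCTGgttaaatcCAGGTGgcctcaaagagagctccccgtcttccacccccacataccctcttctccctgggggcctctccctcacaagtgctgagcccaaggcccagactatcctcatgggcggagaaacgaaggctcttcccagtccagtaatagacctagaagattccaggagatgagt
CAGCTG was present in 13.0% of 32817 windows of the same length and in at least 1 window of 5 of the 11 soleus genes matched, namely Kcne1l, Kcne4, Kcng4, Kcnj2 and Kcnn1, of which Kcnn1 had 2 windows. It was present in 2 of the 7 white fat genes (Kcnip3 and Kcnk2, with 3 and 4 windows) and in Kcnk4. CACCTG was present in 17.2% of all windows, in 3 of the 11 soleus genes and in 1 of the 7 white fat genes (Kcnab2, with 3 windows). It was also in Kcna5 and, written as CAGGTG, in Kcnk4. The CTA and TAG pattern was in 3.20% of all windows, in Kcnk4 and in 0 of the 11. In Kcnk4 its 4 central bases were GAAC, so it was not a MEF2 core there. AGGTCA and TATAAA, in 14.0% and 12.4% of all windows, were in none of the 21 genes. A match describes these letters and is not a binding site.

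Among two-pore-domain channels, which pass a steady background current, Kcnk3 stood far above the rest in brown fat. Kcnk3, an acid-sensitive background channel also called TASK-1, stood at 96.4, 99.2 and 90.1 FPKM in brown fat replicates 1, 2 and 3, at 2.44, 2.28 and 2.70 FPKM in white fat and at 0.136, 0.133 and 0.0931 FPKM in soleus. The 3 tissues did not overlap, and white fat was in turn above soleus. The mean of brown fat was 38.5 times that of white fat, a difference of 4.79 log2 units (adjusted p = 2.0e-11 in limma, SE 0.07), and 789.8 times that of soleus (6.42 log2 units). Rescaled to a common total, Kcnk3 in brown fat was 25.6 times white fat and 772 times soleus, and the ratios of other genes between the fats shift alike. White fat exceeded soleus by 1.63 log2 units (adjusted p = 3.7e-09 in limma, SE 0.07). Kcnk3 alone made up 66.3% to 69.9% of the summed Kcn FPKM of a brown fat library and 4.45% to 5.29% of that of a white fat library. By mean FPKM it ranked 480 among the 17753 genes in brown fat and 7656 in white fat. The brown adipocyte markers summed to 68.5, 37.8 and 176 FPKM in white fat replicates 1, 2 and 3, against 11711 to 13058 FPKM in brown fat. As deposited, Kcnk3 in white fat was likewise lowest in replicate 2 and highest in replicate 3, over a narrower range. The FPKM of all genes summed to 235019, 214066 and 222140 in these replicates, so this order of Kcnk3 is given for deposited values only. The part of brown adipocyte transcripts in the white fat level of Kcnk3 was not tested.

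The other members of that class were low. Kcnk4, a mechanically gated channel also called TRAAK, shared the direction of Kcnk3 at 1.17, 1.96 and 1.46 FPKM in brown fat, against 0.0277, 0 and 0.0349 in white fat, with soleus at 0.119, 0.130 and 0.108. It was higher in brown than in white fat by 1.30 log2 units (adjusted p = 6.5e-07 in limma, SE 0.10) and than in soleus by 1.16 log2 units. Kcnk2, the stretch- and lipid-sensitive channel TREK-1, and Kcnk6, a channel also known from lysosomes, ran the other way between the fats. Kcnk2 stood at 1.49, 1.54 and 1.72 FPKM in white fat, 0.508, 0.441 and 0.321 in brown fat and 0.949, 0.785 and 0.551 in soleus, and brown fat differed from white fat by -0.86 log2 units (adjusted p = 1.0e-05 in limma, SE 0.09). The difference of Kcnk2 between brown fat and soleus (-0.30 log2 units, limma adjusted p = 0.012) was small and missed the threshold without brown fat replicate 3 (-0.25 log2 units, adjusted p = 0.052). Kcnk2 in white fat against soleus (0.56 log2 units) missed it with quantile normalization (0.19, adjusted p = 0.086). Kcnk6 stood at 1.49, 1.98 and 1.79 FPKM in white fat, 0.484, 0.455 and 0.644 in brown fat and 0.329, 0.385 and 0.456 in soleus, and white fat lay above both. Both fats thus held low levels of several two-pore-domain genes, and brown fat held a high level of Kcnk3 besides.

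**Figure D3:**
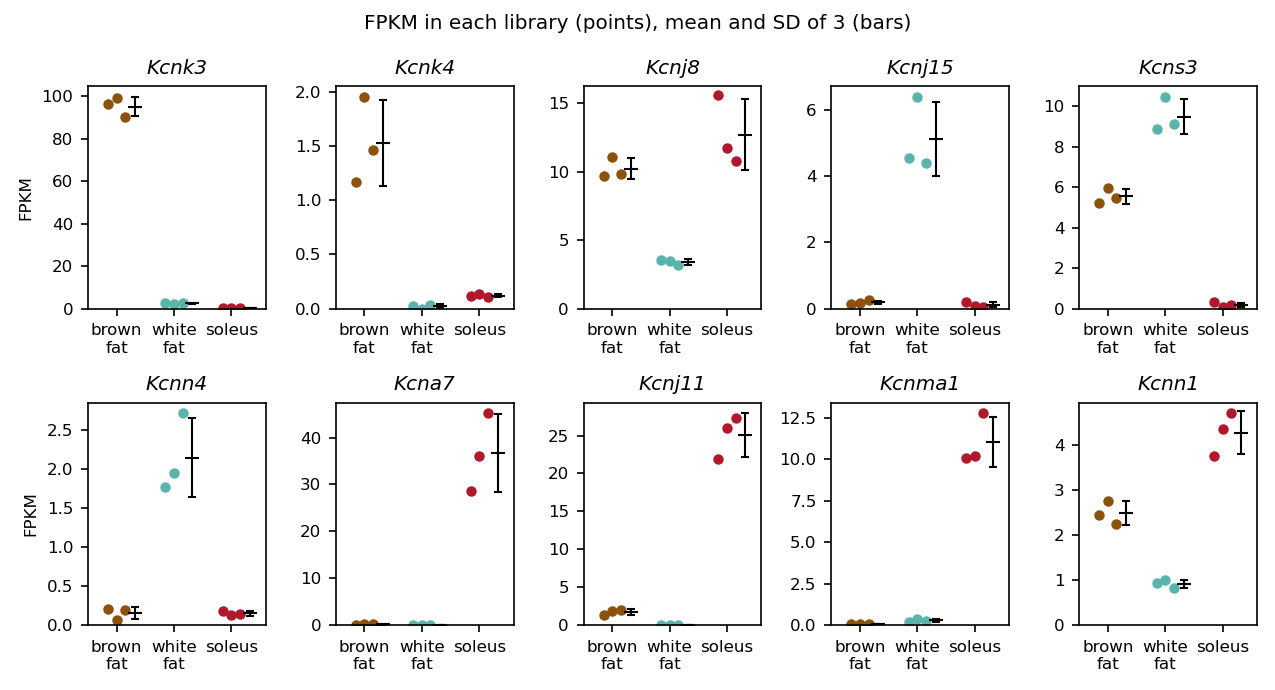
FPKM of 10 Kcn genes in each library (points, replicates 1 to 3 from left to right in each tissue) with mean and SD of the 3 libraries (bars), on linear axes from 0 that differ between genes. Kcnk3 and Kcnk4 are highest in brown fat, Kcnj15, Kcns3 and Kcnn4 in white fat, Kcna7, Kcnj11, Kcnma1 and Kcnn1 in soleus, and the points of Kcnj8 overlap between brown fat and soleus.

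Inward rectifiers pass potassium inward more readily than outward and hold cells near the potassium equilibrium voltage. Kcnj11 and Kcnj8 encode pores of ATP-sensitive channels, which need a sulfonylurea receptor to work. Kcnj11 stood at 21.9, 26.1 and 27.4 FPKM in soleus, at 1.26, 1.88 and 1.98 FPKM in brown fat and at 0.0119, 0 and 0.0198 FPKM in white fat, with no overlap between tissues. It differed by -3.28 log2 units between brown fat and soleus, and brown fat exceeded white fat by 1.41 log2 units (adjusted p = 9.2e-07 in limma, SE 0.11). Kcnj8, the pore form of blood vessels, was less divided, at 15.6, 11.7 and 10.8 FPKM in soleus, against 9.71, 11.1 and 9.87 in brown fat, with white fat at 3.52, 3.51 and 3.19. Brown fat was 3.00 times above white fat, by 1.35 log2 units (adjusted p = 1.7e-06 in limma, SE 0.12), whereas soleus and brown fat overlapped (-0.28 log2 units, limma adjusted p = 0.052). That difference passed without brown fat replicate 2 (-0.33, adjusted p = 0.044) or soleus replicate 3 (-0.38, 0.015), with array weights (-0.27, 0.043) and with upper quartile (-0.59, 0.0017), median of ratios (-0.69, 0.00056) or quantile scaling (-0.59, 0.0021), over a range of 0.00056 to 0.20.

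Of the sulfonylurea receptor genes, Abcc9 stood at 20.9, 18.9 and 24.3 FPKM in soleus, against 5.90, 6.55 and 5.85 in brown fat, with white fat at 1.54, 2.88 and 2.09. Its tissues did not overlap, and their order was that of Kcnj11 and also that of the means of Kcnj8. Its difference between brown and white fat was 1.18 log2 units (adjusted p = 2.1e-05 in limma, SE 0.14). Abcc8, the other receptor gene, stayed under 1 FPKM in every library. The 8 markers of smooth muscle and pericytes, cells in which Kcnj8 and Abcc9 are known to be expressed, summed to 111 to 123 FPKM in brown fat, against 80.6 to 87.5 in white fat, with soleus at 126 to 142, and none was at 0 in a tissue. Of the 7 tested, brown fat was above white fat in 4 and below it in 2. Rgs5, which made up most of the brown fat sum, stood at 66.9, 79.5 and 78.5 FPKM in brown fat, against 19.1, 31.4 and 20.9 in white fat, with soleus at 88.9, 77.8 and 74.0. The contractile genes Acta2 and Tagln ran the other way between the fats, Acta2 at 8.40 to 9.44 FPKM in brown fat against 22.1 to 38.5 in white fat and Tagln at 6.55 to 7.43 against 14.0 to 15.3. The part of these cells in the levels of Kcnj8 and Abcc9 was not tested.

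Kcnj2 and Kcnj12 encode the strong rectifiers that hold the resting voltage of muscle, and both were high in soleus. Kcnj2 stood at 15.7, 13.4 and 11.6 FPKM there, against 0.0728, 0.105 and 0.139 in brown and 0.401, 0.211 and 0.184 in white fat, which made -3.71 log2 units (adjusted p = 1.6e-10 in limma, SE 0.11) for brown fat against soleus. Kcnj12 stood at 5.31, 6.62 and 8.18 FPKM in soleus and at no more than 0.0964 FPKM in any fat library. Neither gene was called between the fats (limma adjusted p = 0.13 and 0.57). Kcnj2 passed there with a pseudocount of 0.1 (-0.79, 0.0097), with rescaling to a common total (-0.30, 0.047) and with the 2 fats alone in the fit (-0.19, 0.045), over a range of 0.0097 to 0.57. Kcnj12 passed with a pseudocount of 0.1 (0.59, 0.034), and its adjusted p ran from 0.034 to 0.86. Kcnj15, a rectifier best known from epithelia, was the reverse case, at 4.55, 6.41 and 4.41 FPKM in white fat, 0.132, 0.176 and 0.246 in brown fat and 0.192, 0.0892 and 0.0519 in soleus. White fat was 27.7 times above brown fat, which differed from it by -2.36 log2 units (adjusted p = 2.1e-08 in limma, SE 0.12), and 46.2 times above soleus. Mesothelial markers, genes of an epithelial lining, summed to 58.1 to 88.5 FPKM in white fat, against 1.19 to 1.42 in brown fat, and lay between 0.245 and 1.87 in soleus. White fat was above brown fat in all 4, and Wt1 was at 0 in all brown fat libraries. The white fat replicates with the highest mesothelial sum (replicate 1) and with the highest Kcnj15 (replicate 2) were not the same, and the part of mesothelium was not tested.

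Voltage-gated channels open on depolarisation and repolarise the cell. In soleus the highest of them was Kcna7, a Shaker-type channel known from muscle, at 28.6, 36.2 and 45.2 FPKM (coefficient of variation 22.7%). It stood at 0.0449, 0.168 and 0.165 FPKM in brown fat and 0, 0.0269 and 0.0113 FPKM in white fat, and held 19.4% to 26.0% of the summed Kcn FPKM of a soleus library. Soleus was 291 times above brown fat, with brown fat different by -5.04 log2 units (adjusted p = 9.1e-11 in limma, SE 0.13) and white fat by -5.19 log2 units. Kcnq5, of the family that carries M-type currents, stood at 2.06, 2.11 and 2.63 FPKM in soleus, against 0.138, 0.157 and 0.187 in brown fat, with white fat at 0.0286, 0.0264 and 0.0351. Kcnc1 and Kcnc4, of the Shaw family of fast channels, followed soleus as well, at 4.86, 5.27 and 4.96 and at 2.35, 2.02 and 3.84 FPKM, with at most 0.0150 and 0.173 FPKM in a fat library. For Kcnc1 the difference between brown fat and soleus was -2.58 log2 units (adjusted p = 3.8e-11 in limma, SE 0.06).

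Kcns3 and Kcng4 encode silent subunits, which form no channel alone and modify other pores. They parted by tissue. Kcns3 was the highest Kcn gene of white fat, at 8.86, 10.5 and 9.10 FPKM, followed by brown fat at 5.21, 5.96 and 5.46 and soleus at 0.299, 0.0979 and 0.165. White fat stood 50.6 times above soleus, by 3.14 log2 units (adjusted p = 1.8e-10 in limma, SE 0.09), and above brown fat 1.71 times. Kcng4 stood at 5.55, 5.08 and 7.19 FPKM in soleus, against 0.548, 0.430 and 0.414 in brown fat, with white fat at 0.156, 0.123 and 0.111. Its difference between the fats (0.37 log2 units, limma adjusted p = 0.0076) missed the threshold with a pseudocount of 5 (0.09, 0.18) and with rescaling to a common total (0.26, 0.055), over a range of 5.7e-05 to 0.18. Kcna5, a channel of vascular smooth muscle and heart, stood near 1 to 2 FPKM in every tissue, at 2.61, 1.77 and 1.80 FPKM in brown fat, against 0.821, 1.71 and 0.984 in white fat, with soleus at 1.41, 1.4 and 2.02. It was called between the fats (0.50 log2 units, limma adjusted p = 0.016), but not without brown fat replicate 1 (0.38, 0.060), white fat replicate 1 (0.39, 0.065) or white fat replicate 3 (0.45, 0.052), nor with rescaling (0.15, 0.45), over a range of 0.0017 to 0.45.

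Calcium-activated channels couple the membrane voltage to calcium inside the cell. Kcnma1, the large-conductance channel, stood at 10.1, 10.2 and 12.8 FPKM in soleus, 0.194, 0.369 and 0.268 in white fat and 0.0422, 0.0326 and 0.0470 in brown fat. Brown fat differed from soleus by -3.53 log2 units (adjusted p = 8.7e-11 in limma, SE 0.09) and white fat from soleus by -3.23 log2 units. The small difference of Kcnma1 between the fats (-0.29 log2 units, limma adjusted p = 0.016) missed the threshold without white fat replicate 2 (-0.24, 0.056), with quantile normalization (-0.20, 0.050) and after adding 5 FPKM (-0.07, 0.32), over a range of 6.2e-05 to 0.32. Of the 4 leucine-rich repeat partners that modify this channel, Lrrc38 and Lrrc52 were high in soleus, while Lrrc26 reached at most 0.0527 FPKM in any library and Lrrc55 stood at 0.281 to 0.406 FPKM in soleus against 0.230 to 0.304 in brown fat. Lrrc38 stood at 9.02, 8.58 and 8.80 FPKM there and was listed at 0 in all 3 white fat libraries. Lrrc52 stood at 7.13, 12.8 and 9.25 FPKM in soleus, and in brown fat its value in replicate 1 was above the others (1.03, 0.209 and 0.376 FPKM). These partners were named after their values were seen.

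The small-conductance channels Kcnn1 and Kcnn2 were also highest in soleus. Kcnn1 was spread over all tissues, at 3.77, 4.36 and 4.71 FPKM in soleus, against 2.45, 2.77 and 2.24 in brown fat, with white fat at 0.926, 0.998 and 0.818, with no overlap, and brown fat exceeded white fat by 0.86 log2 units (adjusted p = 6.2e-06 in limma, SE 0.09). Kcnn2 stood at 1.17, 1.11 and 1.77 FPKM in soleus and at no more than 0.0752 FPKM in any fat library. Kcnn4, the intermediate-conductance channel known from lymphocytes, macrophages and red cells, was a white fat gene at 1.78, 1.96 and 2.73 FPKM, against 0.208, 0.0634 and 0.196 in brown fat and 0.185, 0.123 and 0.140 in soleus. White fat was 13.8 times above brown fat, which differed by -1.44 log2 units (adjusted p = 4.7e-07 in limma, SE 0.11). The 5 matched of 7 leukocyte markers summed to 60.3, 66.9 and 80.8 FPKM in white fat replicates 1, 2 and 3, against 6.43 to 8.60 in brown fat, with soleus at 3.46 to 5.77. White fat was above brown fat in the 3 tested, Adgre1, Csf1r and Ptprc. The lymphocyte markers Cd3e and Cd79a, too low to be tested, overlapped between the fats. Cd3e stood at 0.161 to 0.455 FPKM in white and 0.177 to 0.338 in brown fat. Cd79a stood at 0.272 to 0.635 FPKM in white and 0.495 to 0.556 in brown fat. None of the 5 was at 0 in a tissue. Kcnn4 and this sum had the same order of the white fat replicates, and the part of leukocytes in the level of Kcnn4 was not tested.

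Auxiliary subunits were low, with 3.09 FPKM in Kcne1l of soleus replicate 3 the highest value of any reported one. Kcnab1, Kcnab2 and Kcnab3 encode the cytoplasmic beta subunits of Shaker-type channels, which have the fold of an aldo-keto reductase, and the 3 genes divided between the fats. Kcnab1 stood at 1.07, 1.10 and 1.05 FPKM in white fat and 0.0517, 0.0112 and 0.0591 in brown fat, and Kcnab2 at 2.03, 2.06 and 2.69 against 0.160, 0.185 and 0.106 FPKM. Kcnab3 stood at 1.15, 1.04 and 1.10 FPKM in brown fat, against 0.0274, 0.0759 and 0.149 in white fat, with soleus at 0.0727, 0.0616 and 0.0703. Brown fat differed from white fat by -1.50 log2 units (adjusted p = 6.4e-08 in limma, SE 0.09) for Kcnab2 and by 0.95 log2 units (adjusted p = 2.8e-07 in limma, SE 0.07) for Kcnab3. In Kcnab1 the small difference between brown fat and soleus (-0.19 log2 units, limma adjusted p = 0.014) missed the threshold without brown fat replicate 2 (-0.17, 0.056), with quantile normalization (-0.11, 0.15) and with a pseudocount of 5 (-0.04, 0.065). Kcnip3, a calcium-binding protein that attaches to channels and is also known as a repressor of transcription, stood at 1.59, 1.02 and 1.65 FPKM in white fat and at most 0.134 FPKM elsewhere. Kcne1l and Kcne4, single-span partners of pore subunits, rose from brown fat over white fat to soleus. Kcne1l stood at 0.0902, 0.157 and 0.0943, at 1.32, 0.573 and 1.19 and at 2.76, 2.61 and 3.09 FPKM in these tissues, and Kcne4 at 0.480, 0.208 and 0.129, at 0.991, 0.824 and 1.01 and at 1.99, 1.4 and 2.48 FPKM. For Kcne4 the difference between the fats (-0.62 log2 units, limma adjusted p = 0.0021) was lost with quantile normalization (-0.23, 0.21), and that between white fat and soleus (-0.59) with rescaling to a common total (-0.29, 0.079).

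**Figure D4:**
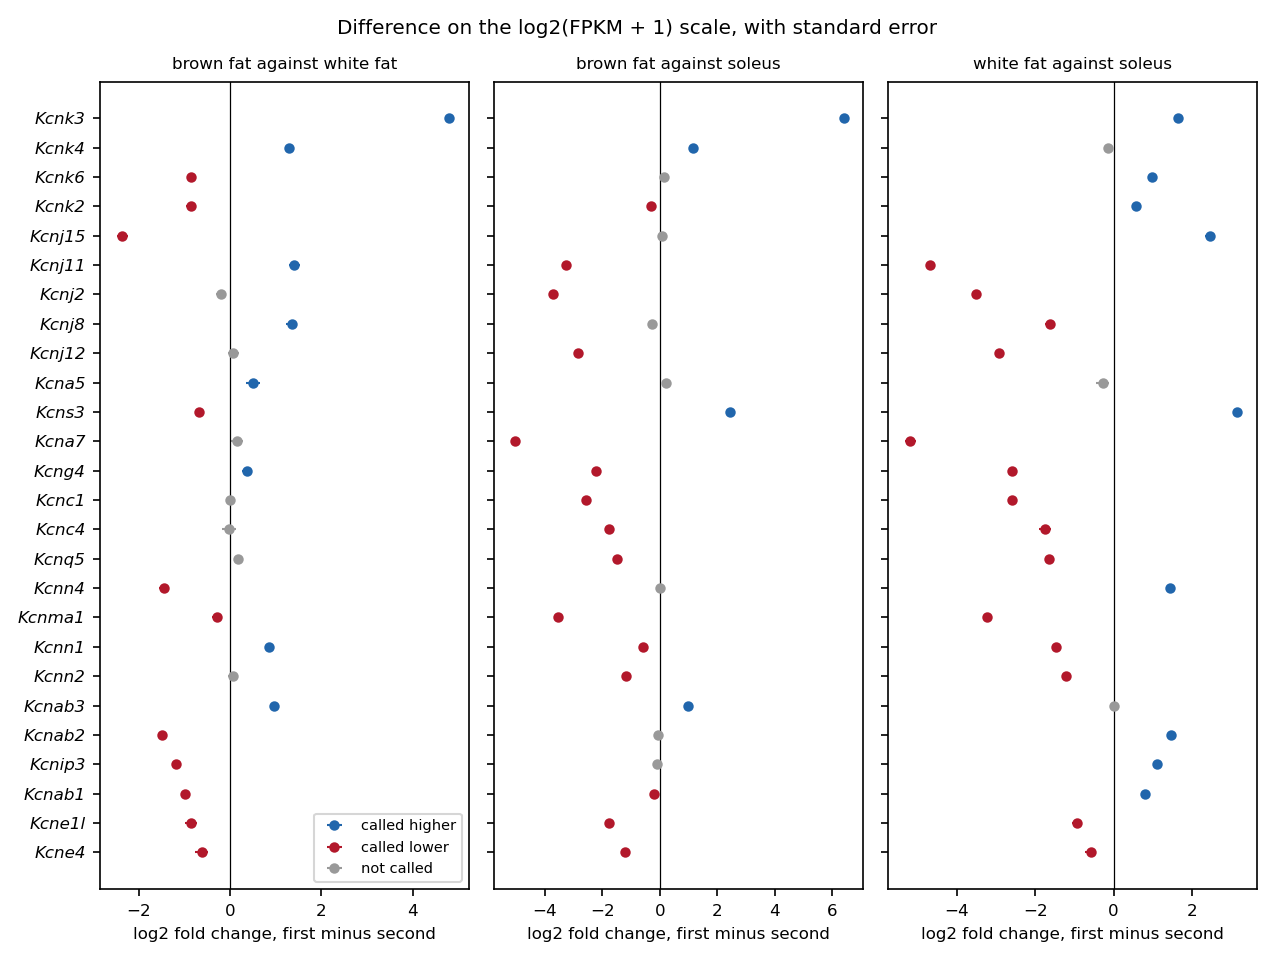
Log2 fold change with standard error of 26 of the 28 genes (rows, in the order of the heat map) in the 3 tissue comparisons, on the log2(FPKM + 1) scale. Kcnk3 stands farthest to the right in both brown fat panels (4.79 and 6.42), and Kcna7 farthest to the left in both soleus panels (-5.04 and -5.19).

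Muscle transcripts were present in the brown fat libraries, and the soleus channels were set beside them. The 7 muscle fibre markers summed to 0.143%, 0.568% and 0.335% of their mean in soleus in brown fat replicates 1, 2 and 3, and brown fat was above white fat in all 7. Kcna7 stood at 0.122%, 0.458% and 0.452% of its soleus mean in the same libraries, and Kcnj12 at 0.346%, 1.44% and 0.844%. Kcnj11 in brown fat stood at 5.01%, 7.47% and 7.89% of its soleus mean. The single markers ranged widely, and the highest were Pvalb at 0.501%, 4.74% and 2.51% and Myl1 at 1.32%, 1.76% and 1.62%. The rest were lower in each brown fat library, from Myl2 at 0.00194%, 0.0188% and 0.00849% to Atp2a1 at 0.148%, 1.25% and 0.589%. Kcnj2 at 0.537%, 0.777% and 1.02% and Kcnma1 at 0.383%, 0.296% and 0.426% had another order of the brown fat replicates than the marker sum. So did Kcnj11, which was highest in replicate 3, where the marker sum was highest in replicate 2. In white fat the marker sum was at 0.0425% to 0.0461% of soleus and Kcnj11 at 0 to 0.0789%, whereas Kcnj2 stood at 1.36% to 2.96% and Kcnma1 at 1.76% to 3.34%. Of the white fat marker sums of 16.6 to 18.0 FPKM, 13.4 to 16.9 came from Myl1. Myl1 stood at 0.531% to 0.670% of its soleus mean there, and the other markers at no more than 0.0627%. The part of muscle transcripts in the fat levels of these channels was not tested. The fat markers in turn were uneven in soleus, where the adipocyte markers Adipoq, Cidec, Lipe and Pparg (4 of 5 matched) summed to 147, 58.0 and 28.4 FPKM in replicates 1, 2 and 3, and Kcns3 stood at 0.299, 0.0979 and 0.165 FPKM.

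Of the 67 Kcn genes below the minimum, 35 stayed under 0.1 FPKM in every library, and 6 of them (Kcnh5, Kcnk9, Kcnk15, Kcnk16, Kcnq3 and Kcns2) were listed at 0 throughout. Just inside the minimum were Kcnab1, at 1.07, 1.10 and 1.05 FPKM in white fat, and Kcnab3, at 1.15, 1.04 and 1.10 FPKM in brown fat. Just outside were 5 genes with 1 FPKM or more in 1 or 2 libraries. Kcnj6, a rectifier opened by G proteins, stood at 0.990, 0.950 and 1.02 FPKM in soleus and was listed at 0 in all 6 fat libraries. Kcnk13 stood at 0.789, 0.836 and 1.06 FPKM and Kcnq1 at 0.905, 0.877 and 1.25 FPKM in white fat. Kcnh2, the channel of cardiac repolarisation, stood at 0.655, 0.911 and 1.43 FPKM in soleus, and Kcnip4 at 1.06, 1.15 and 0.325 FPKM. When all genes above 0 were fitted, 61 of the 67 entered, of 14538 genes. Called between the fats (limma adjusted p under 0.05) were 5 higher in brown fat (8.20%, against 28.1% of all genes in that fit) and 16 lower (26.2%, against 33.1%). Brown fat was above soleus in 5 (8.20%, against 39.4%) and below it in 13 (21.3%, against 21.6%), and white fat was above soleus in 15 (24.6%, against 47.2%) and below it in 11 (18.0%, against 23.8%). None of these calls reached 1 log2 unit.

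Among the Shaker-type genes of that low group, Kcna1, Kcna2 and Kcna6, known from the nervous system, had their highest means in brown fat. Kcna1 stood at 0.589, 0.629 and 0.962 FPKM in brown fat replicates 1, 2 and 3, Kcna2 at 0.303, 0.363 and 0.935 FPKM, and in white fat they reached at most 0.212 and 0.170 FPKM. The 6 matched of 7 nerve and Schwann cell markers summed to 66.8, 61.6 and 75.7 FPKM in brown fat, against 5.51 to 6.72 in white fat, with soleus at 8.49 to 42.5, and none was at 0 in a tissue. Of the brown fat sums 48.7 to 59.4 FPKM came from S100b. Brown fat was called above white fat in 3 of the 4 tested. The neuronal marker Tubb3 ran the other way, at 0.0737 to 0.0962 FPKM in brown fat against 0.322 to 0.548 in white fat. The part of nerve in these values was not tested, and these genes were chosen after their values were seen.

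Of 30 listed genes that serve potassium channels under other names, as partners, regulators or organelle channels, 19 were tested. In brown against white fat 10 were higher and 5 lower (52.6% and 26.3%, against 38.0% and 34.8% of all genes, median 0.46 against 0.03 log2 units). In brown fat against soleus 9 were higher and 9 lower (47.4% each, against 52.9% and 25.6%, median 0.22 against 0.29). In white fat against soleus 7 were higher and 10 lower (36.8% and 52.6%, against 54.5% and 29.7%, median -0.44 against 0.35). These counts describe the list, which was not tested against other genes. Tmem38a, a cation channel of the sarcoplasmic reticulum that passes potassium against released calcium, stood at 534, 581 and 579 FPKM in soleus, against 2.76, 3.89 and 3.89 in brown fat, with white fat at 1.47, 1.88 and 1.79; brown fat differed from soleus by -6.98 log2 units (adjusted p = 2.4e-12 in limma, SE 0.11). Its relative Tmem38b, found in many cell types, stood at 28.7, 33.5 and 35.8 FPKM in soleus, at 19.5, 21.0 and 22.5 in brown fat and at 7.20, 7.18 and 6.53 in white fat. Letm1, a protein of potassium and proton exchange in mitochondria, stood at 141, 128 and 125 FPKM in brown fat, against 23.5, 22.1 and 22.1 in white fat, with soleus at 29.3, 30.2 and 33.9, and brown fat exceeded white fat by 2.49 log2 units (adjusted p = 1.6e-09 in limma, SE 0.08). Ank3, an ankyrin that anchors channels at the membrane, stood at 11.2, 10.9 and 12.2 FPKM in soleus and at most 0.303 FPKM in the fats. The scaffold gene Dlg4 stood at 2.42 ± 0.199 FPKM in white and 0.616 ± 0.108 FPKM in brown fat (SD, n = 3), and the kinase gene Stk39 at 6.21 ± 0.672 FPKM in white fat and 1.57 ± 0.187 FPKM in soleus (SD, n = 3).

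Exons of 8 of the 28 genes overlap exons of a transcript on the other strand in the GENCODE annotation, namely Kcnab1, Kcnab3, Kcnj15, Kcnk2, Kcnma1, Kcnn1, Kcnn2 and Kcnq5. No strand setting is given in the sources used, so reads of these genes and of their partners on the other strand may not be told apart.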

How the data were processed

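RNA was extracted with TRIzol and made into TruSeq v2 libraries, per the labels' protocols. The authors deposited 1 matrix of FPKM values. TopHat 1.4.1, Cufflinks 2.0.1 and the build mm9 are named per the submitters' processing notes. The 18401 rows were matched to gene symbols (18305 through RefSeq, 38 through GENCODE), rows of a symbol were summed, and 55 rows with no symbol and 3 with several (together 0.0339% to 0.360% of FPKM) were left out. Genes at 1 FPKM or more in at least 3 libraries (9913) were tested on log2(FPKM + 1) in 1 limma 3.58.1 fit (R 4.3.3) over all 9 libraries with a mean-variance trend, 6 residual degrees of freedom and Benjamini-Hochberg adjustment over the 9913 genes. Fold changes on this scale understate the change of low genes. Calls needed an adjusted p under 0.05. On simulated data with 100 genes changed by 1 log2 unit, 93%, 97% and 94% were recovered in brown against white fat, brown fat against soleus and white fat against soleus. Kcn genes were named as Kcnk3, the 5 largest calls per direction and comparison and the highest gene of each class and tissue in full, and the rest of the 28 by direction or range, and partners as the 2 largest calls per direction and comparison. Abcc9, Lrrc38 and Lrrc52 were named after their values were seen. The members and lists were chosen with earlier results of these data known. Alternatives covered the pseudocount, filter, scaling, model and each library left out. The alternatives for partners and the rescaling of summed Kcn levels were chosen after seeing the data. Some genes that these rules name are not reported here.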

Additional observations from a re-analysis of the deposited data

How the results depend on the processing

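Of 84 gene comparisons (28 Kcn genes in 3 comparisons), 66 were called, and 58 of them were called in the same direction under each of 21 alternatives. No called difference of a Kcn gene reversed, and no count of called Kcn genes moved by more than 1.5 times. Some differences that were not called changed sign, as that of Kcna5 in brown fat against soleus did (0.23 log2 units, down to -0.06). With 1 library left out, 8 to 10 were higher and 11 to 12 lower in brown than in white fat, 5 higher and 15 to 17 lower in brown fat than in soleus, and 9 to 10 higher and 15 to 16 lower in white fat than in soleus. Among partners, Letm1 in white fat against soleus turned from -0.44 to 0.0918 log2 units (limma adjusted p = 0.29) with rescaling to a common total. The cause was not tested. With the replicate number as a block the Kcn counts were 9 and 12, 5 and 16, and 9 and 15, and no Kcn call changed. Deviations of same-numbered libraries correlated at -0.22 to 0.08, and 2 of 18 cases correlated best with their own number, so the numbers were not taken to pair libraries. Relative depth differed up to 3.58 times, and values well below 1 FPKM rest on few reads.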
